A study of Homo sapiens with 4 samples.

Results

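PU.1, the C/EBP proteins and the MAF proteins are DNA-binding transcription factors of blood cells. The genes described here are the 9 that were named in advance by symbol, SPI1 (PU.1), CEBPA, CEBPB, CEBPD, CEBPE, CEBPG, MAF, MAFF and MAFK, among 60662 genes and transcripts in the deposited count table. The rule that named them used no measured value, though earlier results of these data were known when the factors were chosen. Poly(A) RNA was sequenced from U937, a human cell line with monocyte-like features, derived from a histiocytic lymphoma. The libraries were 2 of cells cultured for 72 h with 10 nM PMA, the diacylglycerol mimic phorbol 12-myristate 13-acetate, and 2 of cells kept 72 h without it. Each group held 1 library from lot 1 and 1 from lot 2 of the cells, and the labels give macrophage-like differentiation as the purpose of the PMA treatment. No label states whether separate cultures stood behind the lots. The p-values therefore rest on library-to-library spread that may be only technical.

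As background, PU.1 belongs to the ETS family and, in mice, is needed for macrophages to form. The C/EBP and MAF proteins are basic leucine zipper factors, which bind DNA as dimers. C/EBPα directs progenitors into the granulocyte and monocyte lineage in mice, and the dose of PU.1 relative to C/EBPα bears on which of these lineages a mouse progenitor takes. MAF is a large MAF protein with its own activation domain, whereas MAFF and MAFK are small MAF proteins that lack one and act with CNC and BACH partners.

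The libraries held 35739833 to 54915928 counts. Levels are given as CPM, the normalised read counts relative to the scaled library size, and a level of 3 counts, the most that a count of 0 allows, corresponds to 0.0475 to 0.0921 CPM for counting error alone. All 9 markers of myeloid cells were above 0 in every library, and 16 of 23 markers of T, B, erythroid and epithelial cells and fibroblasts were at 0 in all of them. The summed level of those 23 markers was 19.6 and 39.8 CPM in the PMA libraries of lots 1 and 2, against 30.0 and 25.7 CPM in the untreated libraries, and CD3E, MS4A1, HBB and COL1A1 were at 0. The highest of them, the T cell receptor gene TRAC, was at 7.33 and 26.3 CPM with PMA and 0.285 and 0 CPM without it, while the other 4 T cell markers were at 0. The 9 myeloid markers summed to 14220 and 16187 CPM with PMA, against 1721 and 2536 CPM without it. Most of each PMA sum was ITGB2, at 10451 and 11987 CPM with PMA and 927 and 933 CPM without it. Of the 9, 3 were called higher and 0 lower (edgeR adjusted p under 0.05), against 4.29% and 2.02% of all genes tested. CD33 was at 72.7 and 66.1 CPM with PMA and 62.3 and 71.1 CPM without it. The part of these 9 markers in the results was not tested. In bulk RNA, a change in the RNA of each cell and a change in the mixture of cells cannot be told apart.

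The sequence upstream of the annotated start is shown for the factors that rose (MAFF and CEBPB) and for CEBPA, against which CEBPB is set in the ratios. CEBPE is also shown, as the only one of the 6 genes searched whose window held a PU.1 core. RefSeq promoters (GRCh38.p14) of 6 of the 9 genes were used, in 9 entries, and the 250 bases before each start were searched. SPI1 and MAFK had no entry at hand, and CEBPD was left out of the search. Motifs were searched on both strands. They were TTGCNNAA for C/EBP proteins and GAGGAA as the PU.1 core. For AP-1 the letters were TGANTCA, and for the cyclic AMP response element (CRE) they were TGACGTCA. The E-box was searched as CACGTG and the Sp1 motif as GGGCGG. The TATA box was searched as TATAAA. Capitals mark matches to all of these but Sp1, and no marked matches overlap each other. The windows are chr22:38201744-38201993 (plus strand) for MAFF, chr20:50190333-50190582 (plus) for CEBPB, chr19:33302535-33302784 (minus) for CEBPA and chr14:23119256-23119505 (minus) for CEBPE.
MAFF: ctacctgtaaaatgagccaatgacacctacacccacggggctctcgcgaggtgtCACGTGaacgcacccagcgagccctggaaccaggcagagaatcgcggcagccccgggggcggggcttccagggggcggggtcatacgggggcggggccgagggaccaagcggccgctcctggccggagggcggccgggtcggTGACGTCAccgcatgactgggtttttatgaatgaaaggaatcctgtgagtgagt
CEBPB: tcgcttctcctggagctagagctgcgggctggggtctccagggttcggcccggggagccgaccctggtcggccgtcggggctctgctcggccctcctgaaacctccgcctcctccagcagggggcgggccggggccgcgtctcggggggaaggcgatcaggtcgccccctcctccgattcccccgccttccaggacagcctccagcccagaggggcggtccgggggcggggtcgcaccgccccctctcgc
CEBPA: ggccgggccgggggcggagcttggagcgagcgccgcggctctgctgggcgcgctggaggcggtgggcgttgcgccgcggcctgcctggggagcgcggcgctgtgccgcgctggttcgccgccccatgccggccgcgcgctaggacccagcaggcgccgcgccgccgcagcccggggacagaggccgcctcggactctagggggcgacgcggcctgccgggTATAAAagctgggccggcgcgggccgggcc
CEBPE: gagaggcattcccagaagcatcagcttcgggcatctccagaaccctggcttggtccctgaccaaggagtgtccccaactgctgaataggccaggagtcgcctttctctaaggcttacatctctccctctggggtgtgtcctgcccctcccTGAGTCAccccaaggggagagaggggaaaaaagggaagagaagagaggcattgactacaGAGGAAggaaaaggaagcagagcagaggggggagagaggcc

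The MAFF window held a CRE 54 bases before the start and an E-box 196 bases before it. A later start of MAFF had no CRE match in its window and an E-box 81 bases before it. A CRE match was present in 1.65% of 35114 promoter windows of the same length, and an E-box match in 6.35%. A CRE match also lay 45 bases before the start of MAF, a gene that was not detectable here. The CEBPB window held 4 Sp1 matches and none of the others, and a later start of CEBPB had a TATA box 29 bases before it. The CEBPA window held a TATA box 30 bases before the start, as 10.7% of windows do. The CEBPE window held an AP-1 match 100 bases before the start and a PU.1 core 41 bases before it, which 6.57% and 23.6% of all windows also hold. No window of these 6 genes matched the C/EBP motif, which 9.05% of all windows hold. The windows of CEBPA, CEBPB, MAFF and CEBPE were 81.2%, 75.6%, 65.6% and 57.2% G and C, against a median of 58% over all windows. A match is a description of letters, not evidence of binding.

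Of the 9 genes, 7 had enough counts to be tested, and MAFF and CEBPB rose with PMA while none fell. These calls are edgeR quasi-likelihood tests at an adjusted p under 0.05 (Benjamini-Hochberg over 16451 genes). Over all genes tested, 4.29% were called higher and 2.02% lower. SPI1 and CEBPE were higher in both PMA libraries than in both untreated libraries without passing the test, the groups of CEBPA, CEBPG and MAFK overlapped, and CEBPD and MAF were at or below the level of 1 count. In total, 4 of the 7 had groups that did not overlap, all of them higher with PMA. Among all genes tested, 60.4% had groups that did not overlap and 31% did so with PMA higher.

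**Figure D1:**
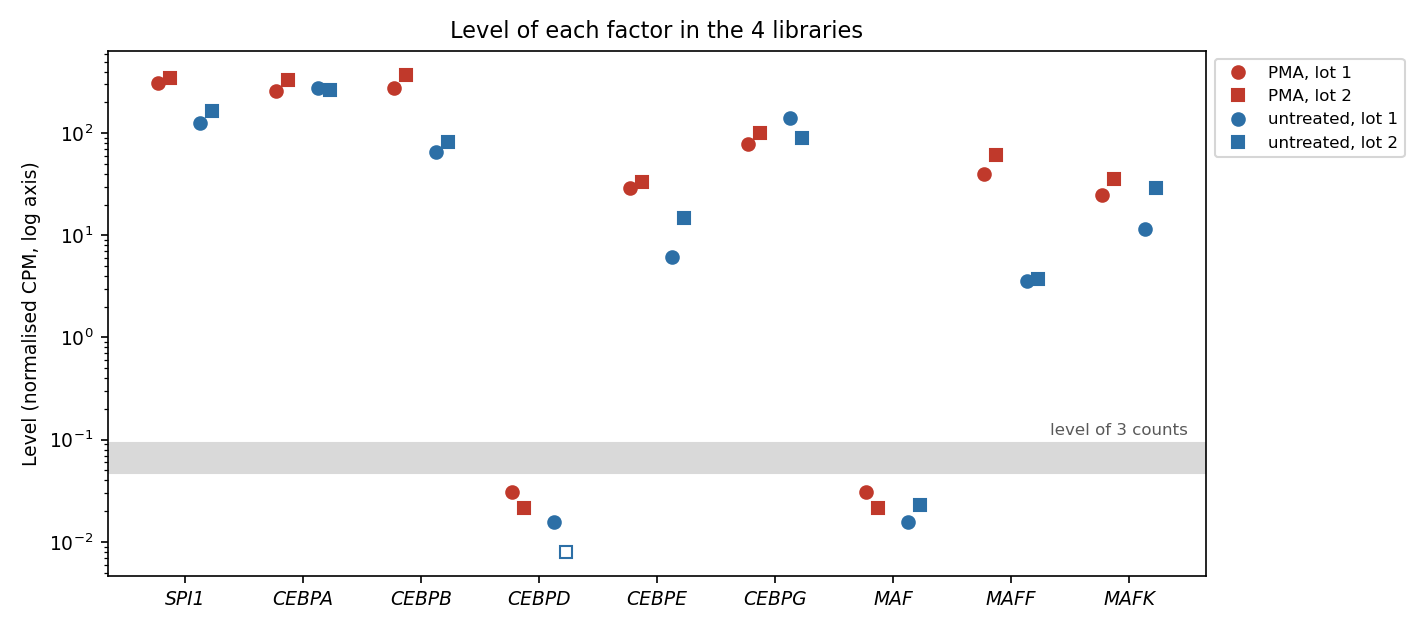
Normalised CPM (log axis) of each of the 9 genes in the 4 libraries, with PMA libraries in red to the left of untreated libraries in blue, circles for lot 1 and squares for lot 2. The grey band is the level of 3 counts, 0.0475 to 0.0921 CPM, and the open square is a count of 0. SPI1, CEBPB, CEBPE and MAFF are apart by group, while CEBPD and MAF lie below the band in every library.

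SPI1 (ENSG00000066336.11) encodes PU.1. It was at 307 and 343 CPM in the PMA libraries of lots 1 and 2, against 126 and 164 CPM in the untreated libraries. Both PMA libraries were above both untreated ones, by a log2 ratio of 1.29 in lot 1 and 1.06 in lot 2. The fitted log2 fold change was 1.16 ± 0.31 (SE), or 2.24-fold with a 95% interval of 1.29 to 3.89. It did not pass the test (edgeR adjusted p = 0.0878, unadjusted p = 0.0130), and it passed in 1 of 11 alternatives, DESeq2 (adjusted p = 0.0103, where 13.5% of genes were called higher). Per kilobase of the longest annotated transcript, SPI1 was the most abundant of the 9 genes in both PMA libraries, at the 98.7th percentile of genes above 0 in each, while in the untreated libraries it lay at the 97.2nd and 96.6th percentiles. Its mean level per kilobase was 231 ± 18.1 in PMA cells and 103 ± 19.1 CPM per kilobase in untreated cells (SD, n = 2 each).

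CEBPB (ENSG00000172216.6), which encodes C/EBPβ, a factor of activated macrophages and of the acute-phase response, was at 278 and 373 CPM with PMA, against 65.7 and 81.7 CPM without it. The groups did not overlap, and the lots gave nearly the same log2 ratio, 2.08 in lot 1 and 2.19 in lot 2. CEBPB rose by 2.14 ± 0.34 on the log2 scale, which is 4.42-fold with a 95% interval of 2.42 to 8.07 (edgeR adjusted p = 0.0364). The call was lost without PMA replicate 1 and without PMA replicate 2. The log2 fold change stayed between 1.93 and 2.31 over the 11 alternatives. In the authors' deposited table its log2 ratio was 2.13 with q = 0.0242. The antisense gene CEBPB-AS1 overlaps it and had 0 counts in 3 libraries and 63 counts in the untreated library of lot 2.

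CEBPA (ENSG00000245848.3), which encodes C/EBPα, was at 259 and 327 CPM with PMA and at 277 and 267 CPM without it. The untreated values lay between the PMA values, and the log2 ratios by lot had opposite signs, −0.094 in lot 1 and 0.30 in lot 2. The log2 fold change was 0.11 ± 0.30 (edgeR adjusted p = 0.855), with an interval of 0.638-fold to 1.83-fold, and its sign turned with upper-quartile scaling (−0.057) and without PMA replicate 2 (−0.053). CEBPA per kilobase was the highest of the C/EBP genes in both untreated libraries, at 105 and 101 CPM per kilobase, which differed from SPI1 there by less than the spread of SPI1 between libraries.

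CEBPE (ENSG00000092067.5) encodes C/EBPε, a factor of late granulocyte maturation. Its levels were 29.2 and 32.9 CPM in PMA cells and 6.17 and 14.6 CPM in untreated cells. PMA values were close to each other and above both untreated values, which differed more than 2-fold. The log2 fold change of 1.58 ± 0.55 did not pass the test (edgeR adjusted p = 0.150, 95% interval 1.12-fold to 7.93-fold). It passed with DESeq2 (adjusted p = 0.0465) and without untreated replicate 2 (2.33 on the log2 scale, edgeR adjusted p = 0.0489).

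CEBPG (ENSG00000153879.9) encodes C/EBPγ, a short member that forms dimers with other C/EBP and ATF proteins. It was at 78.8 and 100 CPM with PMA, against 140 and 90.0 CPM without it. The groups overlapped and the lots differed in sign, −0.82 in lot 1 and 0.16 in lot 2. The log2 fold change was −0.36 ± 0.37 (edgeR adjusted p = 0.601), with an interval of 0.405-fold to 1.5-fold.

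CEBPD (ENSG00000221869.5), which encodes the acute-phase factor C/EBPδ, had 1 count in each PMA library, against 1 and 0 counts in the untreated libraries of lots 1 and 2. MAF (ENSG00000178573.7) had 1 count in every library, a pattern shared by 335 genes of the table. Both genes were under the level of 3 counts in all libraries, were not tested and could not be told from 0 here. A count of 1 was more frequent in this table than a count of 2 (2357 against 781 genes in the PMA library of lot 1), so a single count carries little weight.

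MAFF (ENSG00000185022.12) was the factor with the largest fitted change among the 7 tested. It was at 39.4 and 60.8 CPM with PMA, against 3.59 and 3.73 CPM without it. Every PMA library was over 10-fold above every untreated one, and the untreated libraries agreed closely. The log2 fold change was 3.77 ± 0.45, which is 13.7-fold with a 95% interval of 6.12 to 30.5 (edgeR adjusted p = 0.0253). Without PMA replicate 2 the edgeR adjusted p was 0.0571, the highest of 11 alternatives that reached down to 2.59e-14, and in the other 10 the call held. The authors' deposited table gives a log2 ratio of 3.77 with q = 0.00472, and MAFF and CEBPB are the 2 of the 7 tested genes with a q under 0.05 there, against 8.16% of the genes tested. The phospholipase gene PLA2G6 overlaps MAFF on the opposite strand and was at 5.98 and 3.11 CPM with PMA and 14.5 and 6.00 CPM without it (edgeR adjusted p = 0.360). Whether reads were counted by strand is unstated, and the part of this overlap in the MAFF values was not tested.

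MAFK (ENSG00000198517.10) was at 24.6 and 35.6 CPM in PMA cells and at 11.5 and 28.9 CPM in untreated cells. The groups overlapped, and the lots had the same sign with unequal size, 1.10 in lot 1 and 0.30 in lot 2. The log2 fold change was 0.58 ± 0.57 (edgeR adjusted p = 0.585), with an interval of 0.542-fold to 4.11-fold. Without untreated replicate 1 it was −0.00094, and without untreated replicate 2 it was 1.39.

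**Figure D2:**
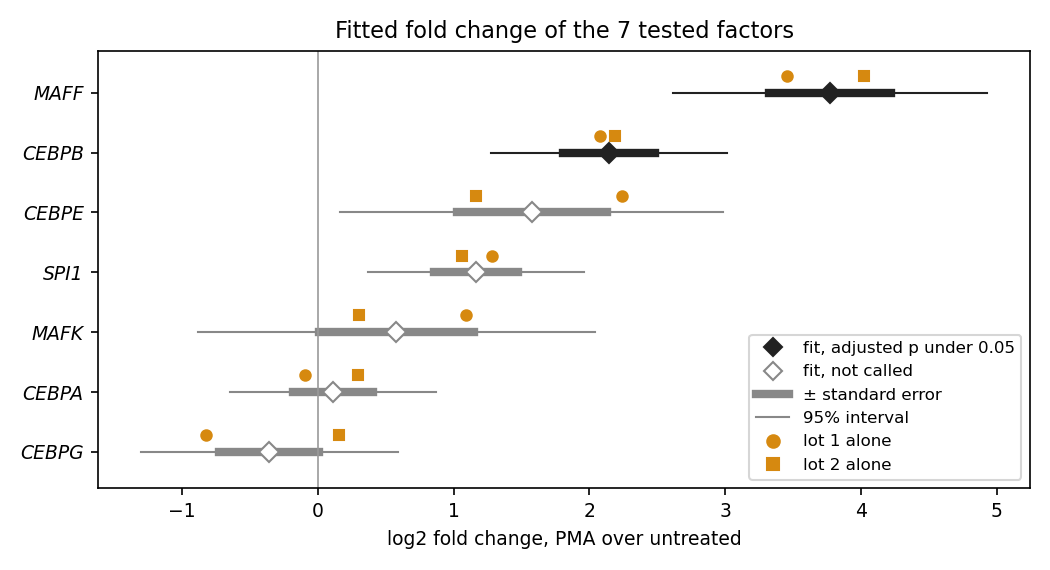
Fitted log2 fold change of PMA over untreated for the 7 tested genes, with the standard error (thick line), the 95% interval (thin line) and the ratio within each lot (orange). MAFF (3.77) and CEBPB (2.14) are the filled symbols, with an adjusted p under 0.05, and the 2 lots lie on opposite sides of 0 for CEBPA and CEBPG.

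The order of levels was compared per kilobase of the longest annotated transcript, which may differ from the transcript that the cells make. In PMA cells the mean levels ran from SPI1 (231 ± 18.1 CPM per kilobase) through CEBPB (166 ± 34.4), CEBPA (111 ± 18.4), CEBPG (21.8 ± 3.70), CEBPE (20.0 ± 1.66) and MAFF (15.3 ± 4.60) to MAFK (8.94 ± 2.31). Among these neighbours, CEBPG and CEBPE had overlapping libraries and did not differ beyond their spread, and the means of CEBPE and MAFF differed by little more than the SD of MAFF. In untreated cells CEBPA (103 ± 2.63) and SPI1 (103 ± 19.1) were level, followed by CEBPB (37.7 ± 5.80), CEBPG (27.9 ± 8.53), CEBPE (6.70 ± 3.86), MAFK (5.99 ± 3.64) and MAFF (1.12 ± 0.0302). There the libraries of CEBPA and SPI1, of CEBPB and CEBPG, and of CEBPE and MAFK overlapped, so these neighbours did not differ beyond their spread. MAFF stood below MAFK in both untreated libraries and above it in both PMA libraries.

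The makeup of the C/EBP family was expressed as the share of each gene in the summed level per kilobase of CEBPA, CEBPB, CEBPD, CEBPE, CEBPG and DDIT3. DDIT3 encodes CHOP, a stress-induced C/EBP protein that opposes other members. CEBPB made up 48.8% and 47.8% of the sum in the PMA libraries, against 14.5% and 21.6% in the untreated libraries. CEBPA made up 33.8% and 31.2% with PMA and 45.3% and 52.3% without it. The largest share thus belonged to CEBPB in both PMA libraries and to CEBPA in both untreated libraries. Without division by length, CEBPB still held 42.4% ± 0.327 against 38.4% ± 1.33 for CEBPA in PMA cells (SD, n = 2). CEBPG made up 6.59% and 6.12% with PMA, against 14.6% and 11.3% in the untreated libraries. The shares of a library form a fixed whole, so a higher CEBPB share leaves less for the other genes together. In CPM, the PMA and untreated groups overlapped for both CEBPA and CEBPG. DDIT3 was at 4.33% and 9.53% with PMA and at 23.8% and 9.96% without it, a spread between lots that was wider than that of any other C/EBP gene.

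**Figure D3:**
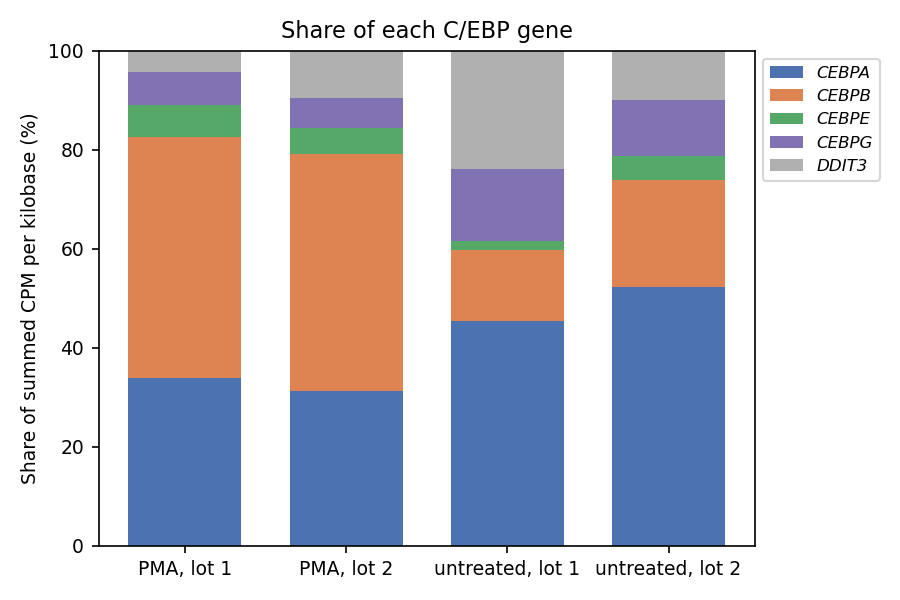
Share of CEBPA, CEBPB, CEBPE, CEBPG and DDIT3 in their summed CPM per kilobase, in percent, with 1 bar per library and the PMA libraries on the left. CEBPD is too low to be seen. CEBPB takes 48.8% and 47.8% of the PMA bars, against 14.5% and 21.6% of the untreated bars.

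Ratios between 2 genes within a library do not depend on how libraries are scaled. They were computed for 4 pairs that were chosen after the values had been seen. The ratio of CEBPB to CEBPA per kilobase was 1.44 and 1.53 in PMA cells, against 0.319 and 0.412 in untreated cells, which is a change of 2.04 on the log2 scale (2.18 in lot 1 and 1.90 in lot 2). The ratio of SPI1 to CEBPA was 2.22 and 1.96 with PMA and 0.853 and 1.15 without it, a change of 1.07 on the log2 scale. SPI1 stood at 1.54 and 1.28 times CEBPB per kilobase with PMA, against 2.67 and 2.79 times without it. MAFF relative to MAFK was 1.64 and 1.75 with PMA and 0.320 and 0.133 without it, a change of 3.04 on the log2 scale. Groups did not overlap for any of the 4 ratios, but 2 libraries against 2 cannot go below p = 0.333 in a two-sided exact permutation test, which is the value each ratio had, also after adjustment over the 4.

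**Figure D4:**
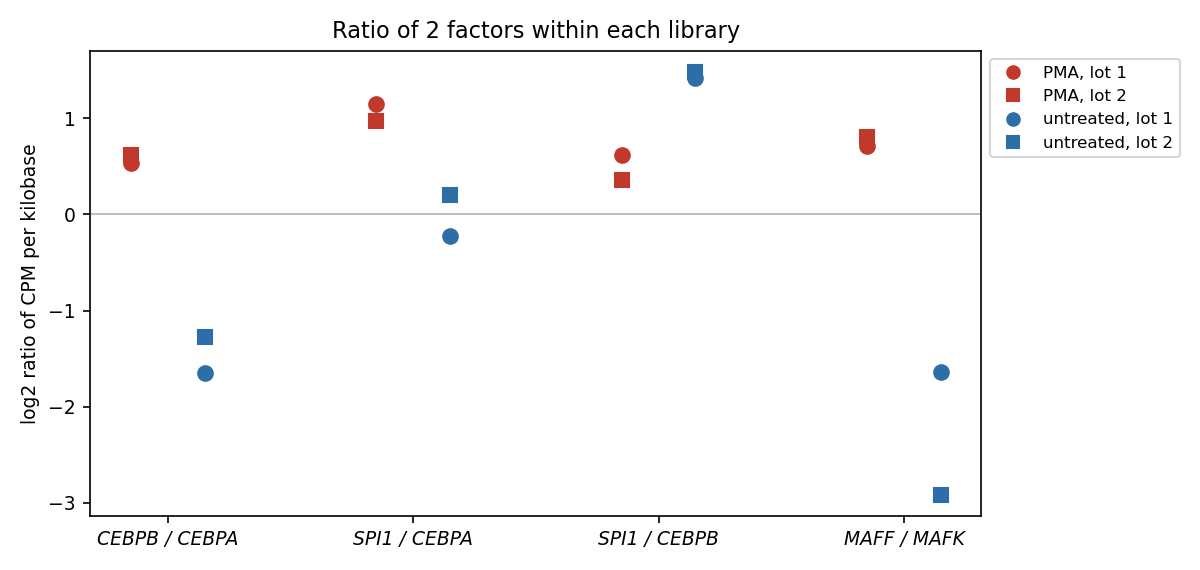
Log2 ratio of CPM per kilobase of 2 genes within each library, for 4 pairs, with PMA libraries (red) left of untreated libraries (blue), circles for lot 1 and squares for lot 2. The CEBPB to CEBPA ratio is above 0 in both PMA libraries and below 0 in both untreated libraries, and the SPI1 to CEBPB ratio is lower with PMA.

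Genes around these factors were described from lists that were written from textbook knowledge with earlier results of these data known. Over all lists, which hold 90 genes, 20 of 71 tested genes were called higher and 5 lower (edgeR), where 4.29% of all genes tested were called higher and 2.02% lower. The counts of each list stand against the same shares. No list had its direction tested, and each is to be read beside the median over all tested genes, a log2 fold change of −0.00043. PU.1-like ETS factors SPIB and SPIC had at most 1 count in every library.

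Partners and antagonists of PU.1 held both directions, with 1 of 8 genes higher and 2 lower among 7 tested. The AP-1 subunit JUN, a coactivator of PU.1, was at 452 and 735 CPM with PMA, against 17.1 and 56.4 CPM without it (4.01 ± 0.72, edgeR adjusted p = 0.0440). JUN lost its call with upper-quartile scaling (0.0553) and without PMA replicate 2 (0.0506), within 4.04e-08 to 0.0553 over the alternatives. Its log2 fold change was 3.33 without untreated replicate 1 and 5.12 without untreated replicate 2. IRF8, which binds composite DNA sites together with PU.1 and directs monocyte development in mice, fell to 24.1 and 12.5 CPM with PMA, against 170 and 127 CPM without it (−3.02 ± 0.47, edgeR adjusted p = 0.0357). The repressor GFI1, which opposes PU.1 in mouse progenitors, fell to 35.3 and 54.1 CPM, against 446 and 306 CPM (−3.07 ± 0.41, edgeR adjusted p = 0.0281). Without PMA replicates 1 and 2 in turn the edgeR adjusted p was 0.0509 and 0.153 for IRF8 and 0.0762 and 0.0582 for GFI1. The log2 fold change of IRF8 was −3.64 without PMA replicate 1. All alternatives ranged from 5.46e-08 to 0.153 for IRF8 and from 2.55e-11 to 0.0762 for GFI1.

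Tribbles proteins recruit the ubiquitin ligase COP1 to C/EBPα. Of the 4 genes TRIB1, TRIB2, TRIB3 and COP1, 1 rose and none fell. TRIB1 was at 226 and 155 CPM in PMA cells, against 0.886 and 0.719 CPM in untreated cells (7.88 ± 0.48, edgeR adjusted p = 0.0148), and kept its call in all 11 alternatives. Of 4 basic leucine zipper partners of C/EBP proteins, ATF3 was the one that passed, at 197 and 237 CPM with PMA and 3.47 and 0.811 CPM without it (6.65 ± 0.87, edgeR adjusted p = 0.0274). ATF3 is a stress-induced factor of the ATF family. Its log2 fold change was 8.0 without untreated replicate 1 and 5.97 without untreated replicate 2. CHOP (DDIT3) was at 13.5 and 40.5 CPM with PMA and 58.9 and 20.6 CPM without it, with opposite directions in the lots (edgeR adjusted p = 0.701).

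Of the 6 CNC and BACH partners of small MAF proteins, none passed the test, where 6.3% of all genes were called. The median log2 fold change of these 6 genes was 1.37. By DESeq2, which called 24.2% of genes, NFE2L1, the member with the smallest p, was called (adjusted p = 0.00193). NFE2L1, a CNC factor that controls proteasome genes, was at 204 and 184 CPM with PMA and 87.8 and 74.8 CPM without it (1.25 ± 0.30, edgeR adjusted p = 0.0734). Among 12 stress-response genes with MAF recognition elements, 2 rose and 0 fell, with a median of 1.53 over the 11 tested. Ferritin heavy chain (FTH1) was at 25832 and 27249.5 CPM with PMA, against 458 and 516 CPM without it (5.77 ± 0.29, edgeR adjusted p = 0.0148). FTH1 has processed pseudogenes that can share its reads. The antioxidant enzyme gene SRXN1 was at 273 and 193 CPM, against 40.9 and 31.1 CPM (2.69 ± 0.37, edgeR adjusted p = 0.0288). SRXN1 was not called without PMA replicate 1 (0.109) or 2 (0.0592), within 1.29e-09 to 0.109 over the alternatives.

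Of 17 textbook PU.1 target genes, all tested, 8 rose and 0 fell, with a median log2 fold change of 3.59. The β2 integrin gene ITGB2 was at 10451 and 11987 CPM with PMA and 927 and 933 CPM without it (3.59 ± 0.28, edgeR adjusted p = 0.0161). CD14, the lipopolysaccharide co-receptor, was at 64.9 and 37.9 CPM with PMA and listed at 0 in both untreated libraries (edgeR adjusted p = 0.0203). ITGB2 and CD14 kept their calls in all 11 alternatives.

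C/EBP target genes were split by function. Of 12 granule genes, 8 were tested, 3 fell and 0 rose, with a median of −3.00. The azurophil granule protease ELANE was at 8.10 and 9.0 CPM with PMA, against 419 and 976 CPM without it (−6.35 ± 0.59, edgeR adjusted p = 0.0203). The protease PRTN3 was at 0.644 and 0.195 CPM, against 96.8 and 201 CPM (−8.50 ± 0.88, edgeR adjusted p = 0.0224), and azurocidin (AZU1) was at 3.25 and 6.64 CPM, against 115 and 91.3 CPM (−4.38 ± 0.53, edgeR adjusted p = 0.0253). The size of these log2 fold changes moved with single libraries. ELANE was at −5.61 without untreated replicate 2 and AZU1 at −4.97 without PMA replicate 2. PRTN3 was at −9.62 without PMA replicate 1, at −7.83 without PMA replicate 2 and at −7.90 without untreated replicate 2. Of 13 inflammatory genes, 7 were tested, 4 rose and 0 fell, and 5 were at 0 in every library. Interleukin 1β (IL1B), which the PU.1 list also holds, was at 757 and 594 CPM with PMA and 0.949 and 3.29 CPM without it (8.32 ± 0.84, edgeR adjusted p = 0.0222). The chemokine CXCL8 was at 934 and 654 CPM, against 0.981 and 7.70 CPM (7.52 ± 1.21, edgeR adjusted p = 0.0373). The chemokine CCL3 was at 110 and 180 CPM with PMA and at 0.269 and 0 CPM without it (edgeR adjusted p = 0.0281). Without untreated replicates 1 and 2 in turn, the log2 fold change was 7.62 and 9.47 for IL1B and 6.63 and 9.66 for CXCL8.

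**Figure D5:**
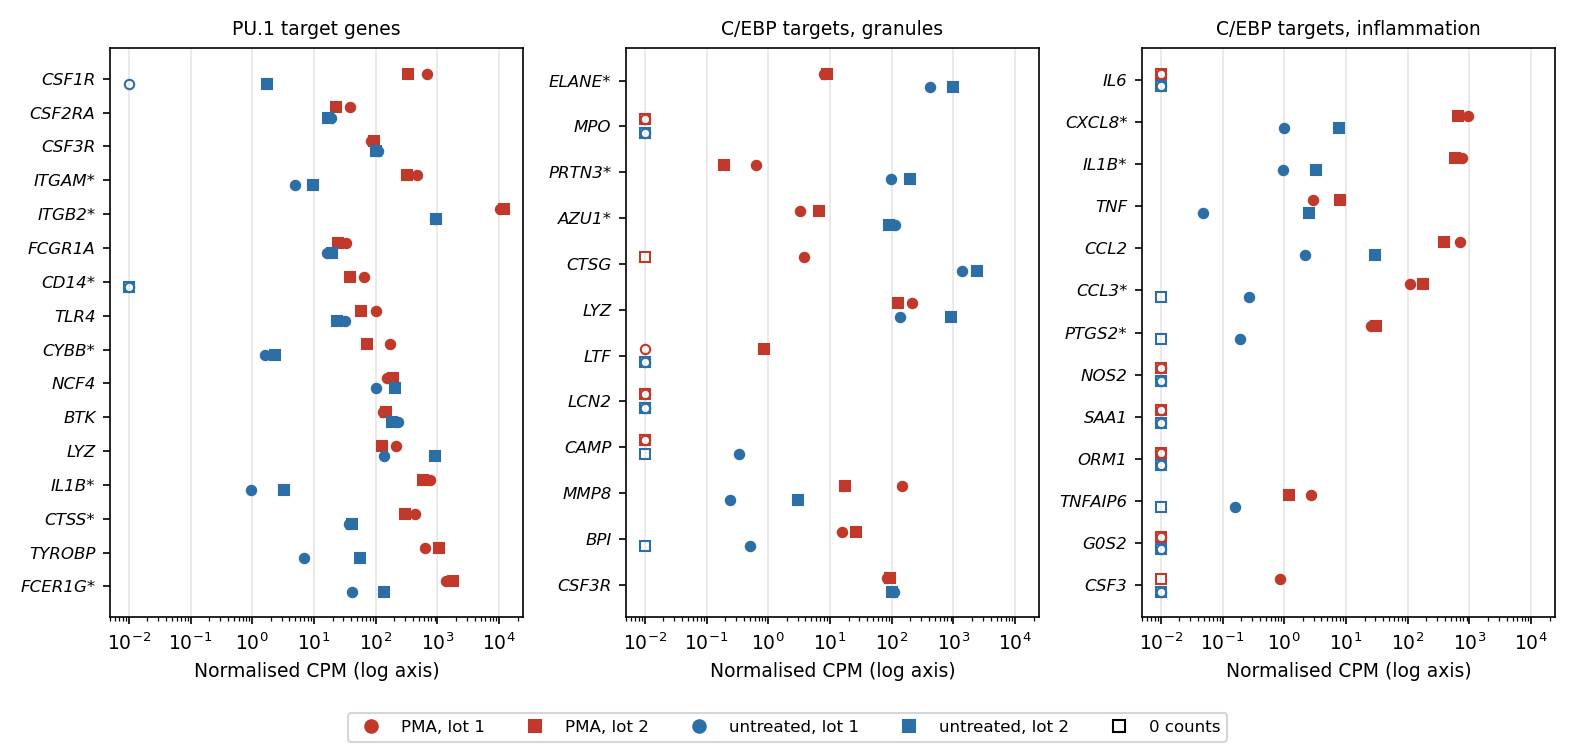
Normalised CPM (log axis) in the 4 libraries for most of the textbook target genes of PU.1 and of C/EBP proteins, with PMA in red above untreated in blue; open symbols at the left edge are counts of 0 and asterisks mark an adjusted p under 0.05. ELANE, PRTN3 and AZU1 lie lower with PMA, whereas IL1B, CXCL8 and CCL3 lie higher.

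Of 11 macrophage genes linked to large MAF proteins, 7 were tested, 3 rose and 0 fell. F13A1 was the only tested gene of the list with a negative log2 fold change. It was at 2.39 and 0.800 CPM with PMA and 11.4 and 5.61 CPM without it (edgeR adjusted p = 0.146). C1QB had 0 counts in both PMA libraries, and MRC1, LYVE1 and SELENOP were listed at 0 in all 4 libraries. C1QC, a chain of complement C1q, was at 26.7 and 8.87 CPM with PMA and listed at 0 in both untreated libraries (edgeR adjusted p = 0.0307). The scavenger receptor CD163 was at 105 and 24.5 CPM with PMA and listed at 0 in both untreated libraries (edgeR adjusted p = 0.0310, and 0.0552 with limma-voom, the highest of alternatives from 1.43e-15). MERTK, a receptor for uptake of dying cells, was at 241 and 141 CPM, against 31.5 and 17.5 CPM (2.96 ± 0.50, edgeR adjusted p = 0.0393). MERTK was not called without PMA replicate 1 (0.124) or untreated replicate 2 (0.0514), within 1.54e-07 to 0.124 over the alternatives.

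Among 9025 tested genes at 10 CPM or more, the genes nearest in pattern to the 3 most abundant factors were found by Euclidean distance of centred log2 CPM over the 4 libraries, which all genes share. Nearest to SPI1 were VOPP1 (0.062), UBE2F (0.092) and PPP1R13B (0.11). IFNGR2 (0.13), S100A10 (0.14) and IL4R (0.17) were nearest to CEBPB, and LAT2 (0.033), NUTM2B-AS1 (0.047) and STRN4 (0.081) to CEBPA. IFNGR2 was at 101 and 129 CPM with PMA and 24.6 and 27.1 CPM without it. With 4 libraries, many genes lie close to any pattern.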

How the data were processed

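Poly(A) RNA of 4 U937 libraries was made into Ion Torrent whole-transcriptome libraries, per the labels' protocols. HISAT2 2.1.0 and StringTie 2.1.1 are listed in the submitters' processing notes with no roles, and build, annotation, strand setting and counting program are not given there. The deposited table holds estimated counts per gene, whole numbers that rounding left as they were. The authors' second table holds a signal (the count times 1 factor per library), a log2 ratio, a mean on the log2 scale, a p-value and a q-value per gene. The authors' log2 ratios and q-values are quoted for MAFF and CEBPB.

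Genes were tested with edgeR 4.0.16 in R 4.3.3 (TMM factors, filterByExpr by group, quasi-likelihood test, no block, adjusted p under 0.05 by Benjamini-Hochberg), which left 16451 genes. Standard errors came from the fold change and F statistic. Lengths are of the longest transcript in GENCODE release 29, matched for 58489 identifiers. The lot numbers in the titles pair the libraries; their deviations from the group mean had a correlation of 0.154 within lots. DESeq2 1.42.0 and limma-voom (limma 3.58.1) were alternatives, with other scaling, filters, a lot block and left-out libraries. The factors and lists were chosen with earlier results of these data known. The rule for named genes took up to 3 called genes per list by smallest p and 1 in the opposite direction, or the smallest p where none was called. Results of some related genes are not reported here.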

Additional observations from a re-analysis of the deposited data

How the results depend on the processing

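Among the factors, the direction of SPI1, CEBPB, CEBPE, CEBPG and MAFF was the same in all 11 alternatives. CEBPD and MAF had at most 1 count in each library, and the reason for these low counts was not tested. With the lot as a replicate block, CEBPB changed by 2.14 on the log2 scale (edgeR adjusted p = 0.0418) and MAFF by 3.74 (0.0351). In that fit 591 genes were higher and 244 lower, and none of the 28 factors and named genes changed its call. With DESeq2, SPI1 (1.16) and CEBPE (1.56) passed the test, 2136 genes were higher and 1698 lower, and 37 genes of the lists were higher. With limma-voom 1149 genes were higher and 636 lower, and with a filter of 5 CPM in 2 libraries 721 were lower. Upper-quartile scaling turned CEBPA to −0.057 and moved the median of all genes to −0.17. Leaving out 1 library at a time gave 424 to 1830 higher genes against 705, 79 to 1085 lower genes against 332, and 21 to 32 higher genes of the lists against 20. The log2 fold change then ranged from −0.053 to 0.21 for CEBPA, 1.93 to 2.31 for CEBPB and 1.02 to 2.33 for CEBPE. For MAFF it ranged from 3.44 to 3.99, and for MAFK from −0.00094 to 1.39. The shares of CEBPA and CEBPB in PMA cells were 38.4% and 42.4% without division by length, against 32.5% and 48.3%. Some settings use fewer libraries or genes by construction. The cause of these changes was not tested.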

Other observations

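Several genes often named as C/EBP targets were listed at 0 in all 4 libraries: IL6, NOS2, SAA1, ORM1 and G0S2 of the inflammatory list, and MPO and LCN2 of the granule list. Such a 0 is no measure of absence, since estimation can fail. In the granule list, 2 genes had higher values with PMA, opposite to the proteases, without passing the test. BPI was at 15.4 and 26.1 CPM with PMA and 0.506 and 0 CPM without it (edgeR adjusted p = 0.0846), and the collagenase MMP8 was at 147 and 17.3 CPM, against 0.237 and 2.99 CPM (edgeR adjusted p = 0.107). Both were chosen after their values had been seen. Lysozyme (LYZ), a gene of both the PU.1 and the C/EBP list, followed neither group, at 211 and 126 CPM with PMA and 136 and 905 CPM without it (edgeR adjusted p = 0.33).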
